A study of Mus musculus with 9 samples.

Results

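The genes described here are 10 genes of the circadian clock: Per1, Per2, Per3, Cry1, Cry2, Nr1d1, Nr1d2 and Ciart, whose products repress the clock's own activators, and Dbp and Tef, output genes that pass the rhythm on to other genes. They were picked by gene symbol and make up 10 of the 57180 genes listed in the deposited table. The choice was made with earlier results of these data known, so their shares beside all genes are a description only. Each was read in the hippocampus of 9 male mice in 3 groups of 3. Con mice were C57BL/6J given vehicle. Model mice were BTBR T+ Itpr3tf/J (BTBR), a strain bred to homozygosity and used in autism research for its reduced social approach and its self-grooming, given the same vehicle. MAN@SKI II mice were BTBR given MAN@SKI II, a brain-directed nanomicelle described by the submitters as acting against sphingosine-1-phosphate, at 40 mg/kg per day for 7 days. All groups were injected into the tail vein from 5 weeks of age and dissected at 6 weeks after behavioural tests; the vehicle is called saline in one field and PBS in another. BTBR differs from C57BL/6J across the whole genome, so Con and Model mice do not differ by a single gene.

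In the mammalian clock, the activators CLOCK (or its relative NPAS2) and BMAL1, the product of Arntl, bind E-boxes in DNA and switch on the Per, Cry, Nr1d and Ciart genes and the output gene Dbp. PER and CRY proteins then return to the nucleus and block the activators, while the NR1D proteins (REV-ERB alpha and beta) repress Arntl through ROR response elements. DBP and TEF, together with HLF, activate genes with D-boxes, Per3 among them, and compete there with the repressor NFIL3. In the hippocampus, as in most tissues, these transcripts rise and fall over the day. In tissues sampled around the clock, Arntl and Npas2 peak at a phase opposite to Dbp, Nr1d1 and the Per genes, while Cry1 peaks later than these. The mice were kept in a 12 h light/dark cycle, and the hour of dissection is not given in the sources used here. Any difference in that hour between groups cannot be told apart from strain or treatment.

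All 10 genes were detected in every library and passed the filter on low counts. Library totals ran from 14751054 to 18827093 counts, and the genes described here had between 102 counts (Ciart) and 6690 counts (Tef) in a library. Levels are given as CPM, counts scaled to the library total with TMM factors, and 3 counts correspond to 0.159 to 0.203 CPM. Of 8 marker genes of hippocampal neurons, 8 were detected, and of 8 markers of the suprachiasmatic nucleus and hypothalamus, Avp, Nms, Six6, Hcrt, Pmch and Oxt were at 0.230 CPM or less in every library. The other two were Lhx1, at 0.239 to 1.10 CPM, and Vip, which cortical and hippocampal interneurons also express, at 13.3 to 19.3 CPM. Of the libraries, MAN@SKI II 2 stood apart, with 9.63% of counts from mitochondrial genes against 6.26% to 7.15% in the others. Replicates within a group had Spearman correlations over genes of 0.982 to 0.992, and p-values measure the spread between these mice only.

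Per unit of transcript length the genes covered a wide range, read here as the deposited FPKM values. In Con, Tef (24.1 FPKM), Nr1d1 (23.5) and Cry2 (21.8) had the highest mean levels. Nr1d2 followed at 14.5 FPKM, Per1 at 9.34, Per2 at 8.74 and Dbp at 6.63. Per3 (3.86 FPKM), Cry1 (3.76) and Ciart (1.78) were lowest. Neighbours whose 3 Con values overlapped were Tef with Nr1d1 and Per3 with Cry1. In both BTBR groups Nr1d1 had the highest mean, at 28.7 FPKM in Model and 33.2 FPKM in MAN@SKI II, and Per3 (5.13 and 5.15 FPKM) stood above Cry1 (2.89 and 2.89 FPKM) with no overlap. In Model the values of Tef overlapped with those of both Nr1d1 and Cry2. Dbp, at 9.85 and 9.72 FPKM, overlapped with Per1 and Per2 in both BTBR groups.

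Promoter sequence shows which clock elements lie next to the start sites. The windows printed are those of the 4 genes with an unadjusted p under 0.05 in Model against Con (Dbp, Per3, Cry1 and Nr1d1) and of Ciart, which has the most E-boxes. Windows of 250 bases before the start were taken from RefSeq on GRCm38.p6, which has entries for 9 of the 10 genes. The motifs searched on both strands were the E-box CACGTG, the E-prime box CACGTT, the D-box TTATGNAA and the core AGGTCA of the ROR response element. Among 32851 such promoters, 6.02% hold the E-box, 3.85% the E-prime box, 3.07% the D-box and 14.0% the ROR core. Capitals mark the matches, and a motif on the opposite strand appears as its reverse complement. The windows are chr4:151044666-151044915 (Per3), chr11:98775378-98775627 (Nr1d1), chr10:85185055-85185304 (Cry1) and chr3:95882229-95882478 (Ciart), read 5′ to 3′ on the minus strand, and chr7:45704997-45705246 (Dbp), read on the plus strand.
Dbp: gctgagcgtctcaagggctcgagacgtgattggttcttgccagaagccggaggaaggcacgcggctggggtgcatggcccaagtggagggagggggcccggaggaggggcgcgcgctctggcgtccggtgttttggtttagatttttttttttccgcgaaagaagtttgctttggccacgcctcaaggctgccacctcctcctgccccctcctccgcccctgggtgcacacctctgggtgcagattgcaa
Per3: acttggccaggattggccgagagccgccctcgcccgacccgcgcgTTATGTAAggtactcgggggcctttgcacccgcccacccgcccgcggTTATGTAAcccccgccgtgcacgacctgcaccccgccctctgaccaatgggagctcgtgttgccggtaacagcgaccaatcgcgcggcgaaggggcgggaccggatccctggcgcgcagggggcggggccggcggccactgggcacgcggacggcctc
Nr1d1: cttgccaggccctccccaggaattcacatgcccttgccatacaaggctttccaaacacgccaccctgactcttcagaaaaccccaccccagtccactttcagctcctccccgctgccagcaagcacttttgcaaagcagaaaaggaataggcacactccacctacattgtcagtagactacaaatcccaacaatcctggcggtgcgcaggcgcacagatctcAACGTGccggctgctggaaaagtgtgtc
Cry1: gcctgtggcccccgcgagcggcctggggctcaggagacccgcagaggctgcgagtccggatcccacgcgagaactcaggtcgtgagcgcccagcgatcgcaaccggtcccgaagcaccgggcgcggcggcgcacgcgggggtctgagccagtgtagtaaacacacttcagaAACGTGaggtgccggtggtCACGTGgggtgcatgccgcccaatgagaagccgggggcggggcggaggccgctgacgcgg
Ciart: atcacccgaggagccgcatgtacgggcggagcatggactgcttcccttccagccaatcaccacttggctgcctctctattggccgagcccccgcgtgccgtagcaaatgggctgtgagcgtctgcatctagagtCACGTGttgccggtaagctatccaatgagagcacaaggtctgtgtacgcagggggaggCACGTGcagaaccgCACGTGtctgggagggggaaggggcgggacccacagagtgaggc

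The Per3 window holds 2 D-boxes, 205 to 198 and 158 to 151 bases before the start, and no E-box. Cry1 has an E-box 60 to 55 bases and an E-prime box on the opposite strand 79 to 74 bases before its start. Ciart has 3 E-boxes, at 116 to 111, 58 to 53 and 44 to 39 bases, and Nr1d1 has an E-prime box on the opposite strand at 28 to 23 bases. The Dbp window matched none of these letters. The bases just after the RefSeq start were found in a GENCODE M21 transcript of the same gene for Dbp, Per3, Cry1 and Ciart but not for Nr1d1, so its distance depends on the start that RefSeq gives. These are matches of letters and not measured binding sites.

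The comparison of Model with Con asks how these genes differ between vehicle-treated BTBR and C57BL/6J hippocampus. Per3, a PER family member that contributes less to the repression of the clock than PER1 and PER2, rose in BTBR, and was the single gene of the 10 past the threshold (adjusted p under 0.05, edgeR). Over all 17550 genes tested the share called was 7.64%, with 3.11% called higher. Cry1, Dbp and Nr1d1 had groups that did not overlap, Cry1 lower in BTBR and the others higher, without passing the threshold. In all, 5 of the 10 genes had groups that did not overlap (32.3% of all genes tested), and 4 had an unadjusted p under 0.05 (19.6% of all genes tested). The median log2 fold change of the 10 was 0.16, 8 of 10 values were positive, and the median over all genes was 0.00031.

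**Figure D1:**
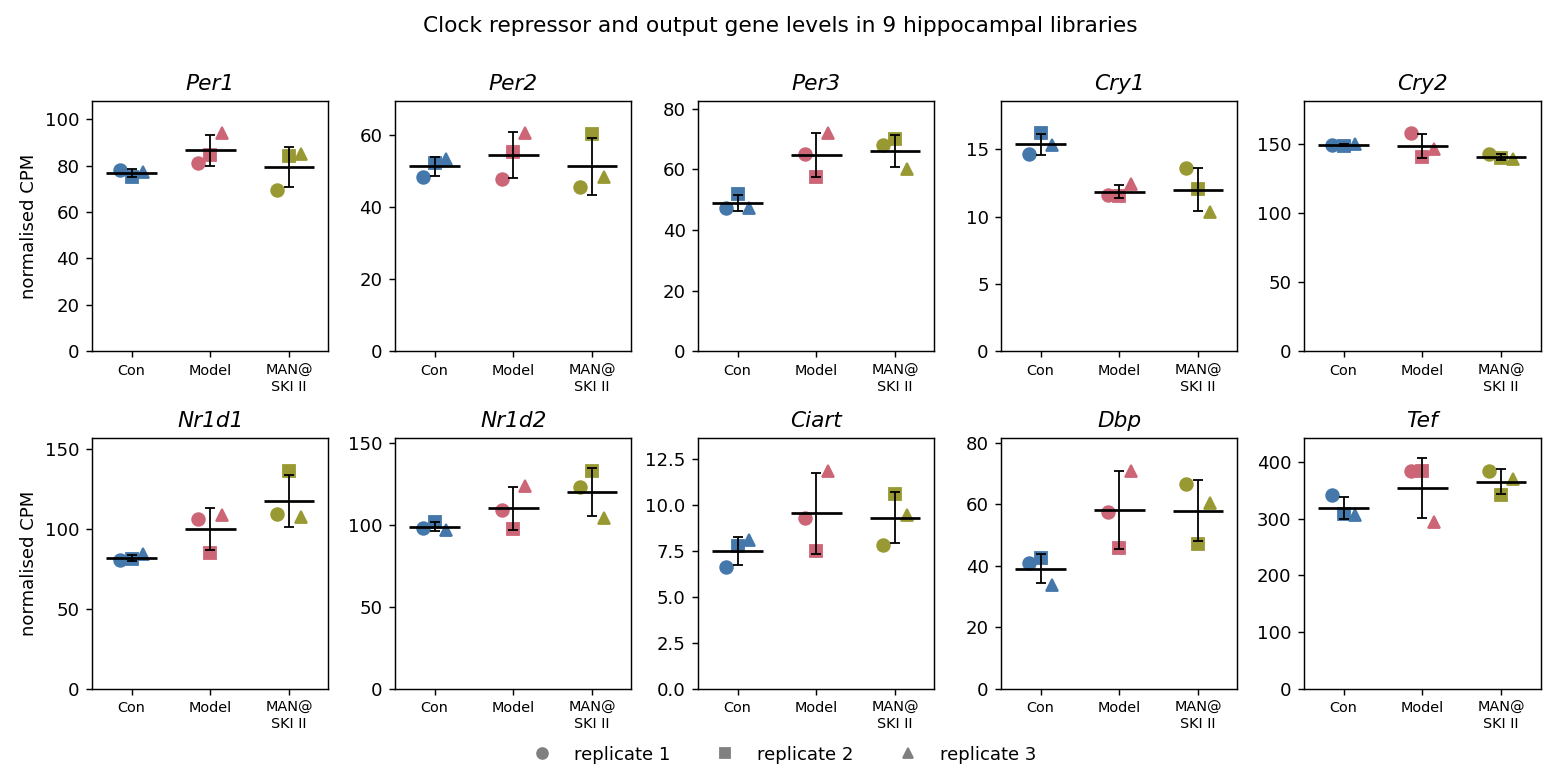
Levels of the 10 clock genes in each library, in CPM (linear axes from 0), with 1 point per mouse and the group mean ± SD over 3 mice. Per3 has every BTBR mouse at 57.4 CPM or more and every Con mouse at 51.8 CPM or less, while the group means of Per2 lie between 51.4 and 54.6 CPM.

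Per3 (ENSMUSG00000028957, chr4:151088109-151129122 on the minus strand of GRCm39) was at 47.2, 51.8 and 47.3 CPM in the Con mice and at 65.2, 57.4 and 72.0 CPM in the Model mice. All Model values lay above all Con values. The means were 48.8 ± 2.63 and 64.9 ± 7.29 CPM (SD, n = 3 each), a 1.33-fold difference and a log2 fold change of 0.41 ± 0.10 (SE; 95% interval 0.20 to 0.62; adjusted p = 0.0231, edgeR). The call is lost with the replicate number as a term (adjusted p = 0.0569) and without Con 1 (0.0977), Con 3 (0.0939), Model 1 (0.0776) or Model 3 (0.103).

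Per1 and Per2 encode the PER proteins that carry most of the feedback on the activators, and both respond quickly to light in the central clock. Per1 was at 78.1, 74.9 and 77.3 CPM in Con and at 81.2, 84.6 and 94.0 CPM in Model. The groups did not overlap, and the difference did not pass the threshold (log2 fold change 0.17 ± 0.09, adjusted p = 0.321, edgeR). Per2 was at 48.4, 52.3 and 53.3 CPM in Con and at 47.9, 55.4 and 60.6 CPM in Model, with overlapping groups and a log2 fold change of 0.09 ± 0.12 (adjusted p = 0.768).

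Cry1 and Cry2 encode the cryptochromes, the strongest repressors of CLOCK and BMAL1. Cry1 (chr10:84967564-85020928, minus strand, GRCm39) was at 14.6, 16.2 and 15.3 CPM in Con and at 11.6, 11.5 and 12.4 CPM in Model. Every Model mouse lay below every Con mouse, with a log2 fold change of -0.38 ± 0.12 (95% interval -0.63 to -0.12; adjusted p = 0.0808, edgeR). Cry2 had means of 149 ± 0.715 CPM in Con and 148 ± 8.67 CPM in Model (SD, n = 3 each). The Con mice were within 148.7 to 150.1 CPM and the Model mice at 158, 141 and 146 CPM, on both sides of that range (log2 fold change -0.01, adjusted p = 0.952). The counts behind Cry1 were low, 162 to 288 per library.

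Nr1d1 and Nr1d2 encode REV-ERB alpha and beta, nuclear receptors that bind haem and repress Arntl. Nr1d1 (chr11:98658758-98666159, minus strand, GRCm39) was at 80.2, 80.9 and 84.2 CPM in Con and at 106, 85.1 and 109 CPM in Model. The groups did not overlap, though Model 2 lay within 1 CPM of the highest Con mouse (log2 fold change 0.29 ± 0.11, adjusted p = 0.160, edgeR). The difference is called without MAN@SKI II 2, which shares the estimate of spread (adjusted p = 0.0430). Nr1d2 was at 98.4, 102 and 96.8 CPM in Con and at 109, 97.4 and 124 CPM in Model, with overlap (log2 fold change 0.15, adjusted p = 0.481).

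Ciart encodes CHRONO, a repressor that binds BMAL1. It was the lowest of the 10 genes, at 6.63, 7.77 and 8.09 CPM in Con and at 9.28, 7.47 and 11.9 CPM in Model. The groups overlapped through Model 2 (log2 fold change 0.35 ± 0.18, adjusted p = 0.339, edgeR).

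Dbp, a D-box activator and one of the output genes with the widest daily swing in many tissues, had the largest fold difference of the 10. Dbp (chr7:45354512-45359627, plus strand, GRCm39) was at 40.8, 42.6 and 33.6 CPM in Con and at 57.5, 45.6 and 70.9 CPM in Model. The groups did not overlap, and the Model mice were spread more widely than the Con mice. The means of 38.99 ± 4.71 and 58.0 ± 12.6 CPM (SD, n = 3 each) gave a 1.49-fold difference and a log2 fold change of 0.57 ± 0.18 (95% interval 0.18 to 0.97; adjusted p = 0.0904, edgeR). It passed the threshold in DESeq2 (adjusted p = 0.0186) and in edgeR without Model 2 (log2 fold change 0.72, adjusted p = 0.0332). Tef, a second D-box activator, was at 342, 308 and 307 CPM in Con and at 384, 385 and 293 CPM in Model, with Model 3 below all Con mice (log2 fold change 0.15, adjusted p = 0.481).

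**Figure D2:**
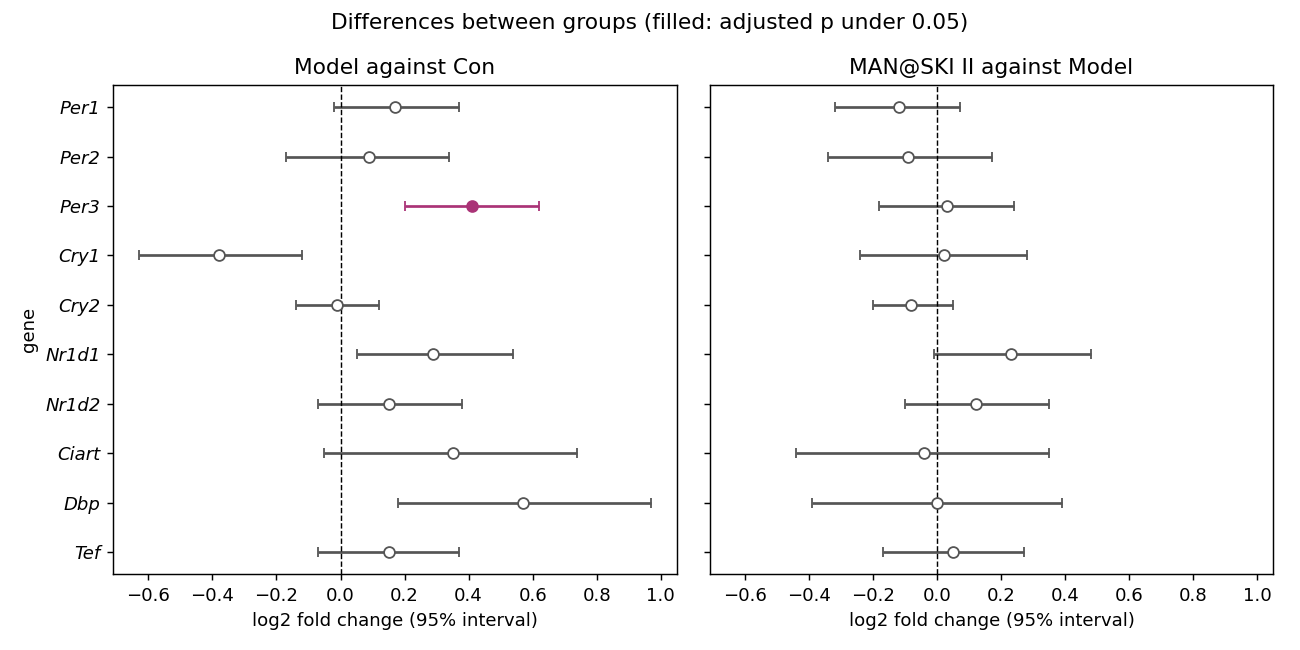
Log2 fold changes of the 10 clock genes in Model against Con and in MAN@SKI II against Model, with 95% intervals from the edgeR fit. The vertical line marks no difference. In Model against Con Per3 lies at 0.41 (0.20 to 0.62) and Cry1 at -0.38 (-0.63 to -0.12), and in MAN@SKI II against Model every interval includes 0.

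Treated and vehicle-given BTBR mice were compared to ask whether treatment moved these genes within the strain. None of the 10 was called, none had an unadjusted p under 0.05, and none had groups that did not overlap. Over all genes tested, 0.00% were called by edgeR, 4.82% had an unadjusted p under 0.05, and 9.43% had groups that did not overlap. DESeq2 called 15 genes of the whole table and none of the 10. The median log2 fold change of the 10 was 0.01, with 5 positive and 5 negative.

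The intervals say how large a treatment difference these data allow. Per3 was at 68.2, 70.2 and 60.2 CPM in the treated mice, inside the range of the Model mice, with a log2 difference of 0.03 (95% interval -0.18 to 0.24). Cry1 was at 13.6, 12.1 and 10.3 CPM, on both sides of the Model values. Dbp was at 66.4, 46.9 and 60.4 CPM, with a difference of -0.0016 (95% interval -0.39 to 0.39), so that a change of its Con-to-Model size lies outside the interval. Nr1d1 had the smallest unadjusted p of the 10, at 0.0581. It was at 109, 136 and 108 CPM after treatment, with MAN@SKI II 2 the highest mouse of all 9 (log2 difference 0.23, 95% interval -0.01 to 0.48, adjusted p = 0.914, edgeR).

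The remaining treated values fell among or beside those of Model. Per1 was at 69.4, 84.0 and 85.0 CPM, Per2 at 45.5, 60.5 and 48.4 CPM, and Cry2 at 143, 139.7 and 139 CPM. Nr1d2 was at 123, 133 and 104 CPM, Tef at 385, 343 and 369.6 CPM, and Ciart at 7.82, 10.6 and 9.45 CPM. Each of these 6 genes overlapped with Model, and their adjusted p-values were between 0.914 and 0.980 (edgeR).

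MAN@SKI II against Con compares treated BTBR with C57BL/6J, so it holds both strain and treatment, and it shares the Con mice with the first comparison and the treated mice with the second. Per3 and Nr1d1 rose, 2 of 10, where 8.13% of all genes were called and 3.43% were called higher. Per3 had a mean of 66.2 ± 5.29 CPM (SD, n = 3) and a log2 fold change of 0.44 ± 0.10 (adjusted p = 0.0164), beside 0.41 in Model. Nr1d1 had a mean of 118 ± 16.3 CPM (SD, n = 3) and a log2 fold change of 0.52 ± 0.11 (adjusted p = 0.0141), beside 0.29 in Model. Without MAN@SKI II 2 its log2 fold change was 0.41 (adjusted p = 0.0197). Both calls rest on the Con mice in part: Per3 had an adjusted p of 0.0728 without Con 1, 0.0700 without Con 3 and 0.0568 without MAN@SKI II 1, and Nr1d1 of 0.0609 without Con 1 and 0.0576 without Con 2.

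The other 8 genes were not called against Con. Cry1 was at -0.36 on the log2 scale (adjusted p = 0.0926) and Dbp at 0.57 (adjusted p = 0.0868, edgeR; 0.0176 in DESeq2), close to their values in Model. Nr1d2 was at 0.28 (adjusted p = 0.136), Tef at 0.20 (0.288), Ciart at 0.30 (0.374), Cry2 at -0.09 (0.439), Per1 at 0.05 (0.801) and Per2 at 0.0019 (0.995). Nr1d2 was called without MAN@SKI II 3 (adjusted p = 0.0395). Groups did not overlap for 7 of the 10 genes (27.3% of all genes tested), and 5 had an unadjusted p under 0.05 (21.6%).

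Read over all 6 BTBR mice, Per3, Nr1d1 and Dbp were above every Con mouse (8.35% of all genes tested were) and Cry1 was below every Con mouse (9.95% were). That is 4 of 10 genes, where 18.3% of the genes tested had all BTBR mice on one side of Con. The ratio of Per3 to Cry1 within a library did not overlap between the strains: its log2 value was 1.69, 1.68 and 1.63 in Con, 2.49, 2.32 and 2.53 in Model, and 2.33, 2.54 and 2.54 in MAN@SKI II. This ratio was chosen after the values were seen and is given as a description. For Per1, Per2, Cry2, Nr1d2, Tef and Ciart the BTBR mice were not all on one side of Con.

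**Figure D3:**
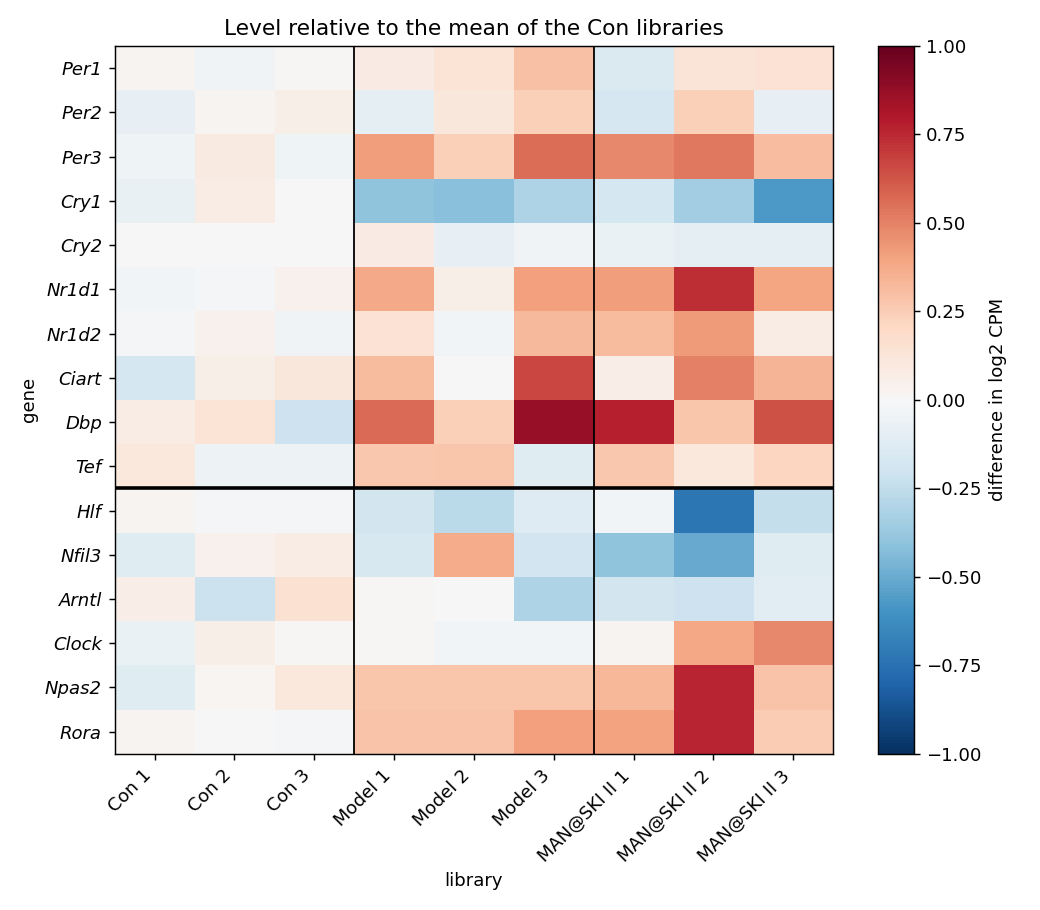
Log2 CPM of the clock genes in each of the 9 libraries, shown as the difference from the mean of the Con libraries (red higher, blue lower); columns are mice by group, and the line separates the 10 genes from other clock genes. All BTBR columns are higher for Per3, Nr1d1 and Dbp and lower for Cry1, and Model 3 and Model 2 differ from each other although both are vehicle-treated BTBR.

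The BTBR mice also differed among themselves. Model 3 was the highest of the 6 BTBR mice for 5 of the 10 genes, and Model 2 the lowest for 5. The mean standardised log2 CPM of the 10 genes was -0.54, -0.36 and -0.47 in Con, 0.34, -0.26 and 0.73 in Model, and 0.08, 0.56 and -0.07 in MAN@SKI II. Model 2 thus lay near Con on this mean, and the other Model mice lay well above it. Over the 9 libraries Per3 (Pearson r = 0.90), Ciart (0.84), Nr1d2 (0.80) and Nr1d1 (0.78) followed the mean of the other members most closely. Cry1 (-0.65), Cry2 (-0.33) and Tef (-0.24) had negative correlations with it. These correlations mix strain with differences between mice, share library scaling, and are given as a description.

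Outside the 10, the genes whose levels followed that mean most closely over the 9 libraries were Tnrc6c (r = 0.976), Stk32b (0.971), Psmc3ip (0.967), Man2b2 (0.949) and Gm41662 (0.947). Among the most opposite were Abca7 (r = -0.983), Otx2 (-0.966), Fhod1 (-0.962) and Aox3 (-0.958). These are the extremes picked from all 17550 genes tested over only 9 libraries that differ by strain. Their r values are therefore high by selection and do not show a link to the clock. Otx2, a homeobox gene that marks choroid plexus, was at 12.3, 6.77 and 6.02 CPM in Con, 0.718, 2.72 and 0.334 CPM in Model and 0.920, 0.424 and 2.49 CPM in MAN@SKI II.

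The activators of the loop were read in the same libraries. Arntl, which encodes BMAL1, was at 34.1, 28.1 and 36.1 CPM in Con, 32.8, 32.5 and 26.3 CPM in Model and 28.8, 28.2 and 30.1 CPM in MAN@SKI II. Its groups overlapped in each comparison, with log2 fold changes of -0.10 (adjusted p = 0.717) in Model and -0.18 (adjusted p = 0.415) in MAN@SKI II, each against Con. Clock averaged 73.9 CPM over the Con mice and 73.1 CPM over the Model mice, and was at 75.1, 96.6 and 103 CPM in the treated mice. The treated mice did not overlap with Model, whose highest value was 74.2 CPM. The log2 difference of Clock from Model was 0.33 (95% interval 0.10 to 0.55, unadjusted p = 0.00888, adjusted p = 0.914, edgeR). Npas2, the relative of Clock that is used in forebrain, was at 24.1, 26.4 and 28.1 CPM in Con, 31.6, 31.6 and 31.7 CPM in Model and 32.9, 44.3 and 31.8 CPM in MAN@SKI II.

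All 6 BTBR mice were above all Con mice for Npas2, with a log2 fold change of 0.27 in Model (adjusted p = 0.251) and 0.47 in MAN@SKI II (adjusted p = 0.0395, edgeR; called in 8 of 17 alternatives). Rora, a nuclear receptor that activates Arntl at the elements where the NR1D proteins repress it, rose in MAN@SKI II against Con by a log2 fold change of 0.49 (adjusted p = 0.0256). In Model it was at 0.33 (adjusted p = 0.131). Its call against Con is lost with the 6 compared libraries alone (0.0712) and without Con 1 (0.0771), Con 2 (0.0850) or Con 3 (0.0875). Of the 7 activators, then, none was called in Model against Con (4 with an unadjusted p under 0.05), and none in MAN@SKI II against Model. In the latter, 1 of them, Clock, had an unadjusted p under 0.05 (4.82% of all genes tested). For 2 of them the groups did not overlap there (9.43% of all genes tested). In MAN@SKI II against Con 2 were called, both higher.

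Of 13 other clock regulators, such as the kinase and ubiquitin ligase genes that set PER and CRY stability, none was called in any of the 3 comparisons by edgeR, and 0, 0 and 2 had an unadjusted p under 0.05. Nfil3, the D-box repressor, had 9.49, 10.7 and 10.9 CPM in Con, 9.22, 13.3 and 9.02 CPM in Model and 7.82, 7.27 and 9.51 CPM in MAN@SKI II. Of 7 further output genes none was called in any comparison, with 0, 0 and 1 at an unadjusted p under 0.05. Among them Hlf, the relative of Dbp and Tef, had 137, 132 and 133 CPM in Con, 118, 111 and 122 CPM in Model and 131, 81.0 and 114 CPM in MAN@SKI II. Every BTBR mouse was below every Con mouse for Hlf, the opposite side from Dbp, with log2 fold changes of -0.19 (adjusted p = 0.532) and -0.30 (adjusted p = 0.253) against Con.

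Because Dbp and Arntl peak at opposite phases of the day, their ratio within a library is shown as a description of where each mouse stood. The log2 ratio of Dbp to Arntl was 0.26, 0.60 and -0.10 in Con, 0.81, 0.49 and 1.43 in Model, and 1.21, 0.73 and 1.01 in MAN@SKI II. Model 2 lay inside the Con range and the other 5 BTBR mice above it. The log2 ratio of Nr1d1 to Arntl was 1.23, 1.53 and 1.22 in Con, 1.70, 1.39 and 2.05 in Model, and 1.92, 2.28 and 1.84 in MAN@SKI II, again with Model 2 inside the Con range. Within the Model group, Model 3 had both the highest Dbp and the lowest Arntl. Npas2, which peaks with Arntl, had all 6 BTBR mice above Con (31.6 to 44.3 CPM against 24.1 to 28.1 CPM), the same side as Dbp and Nr1d1. Per3 was higher in all BTBR mice, and Per2 had the Con values inside the BTBR range. Whether phase of collection or strain lies behind these values was not tested, since no library has a recorded hour and each Con mouse differs from each BTBR mouse in strain.

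**Figure D4:**
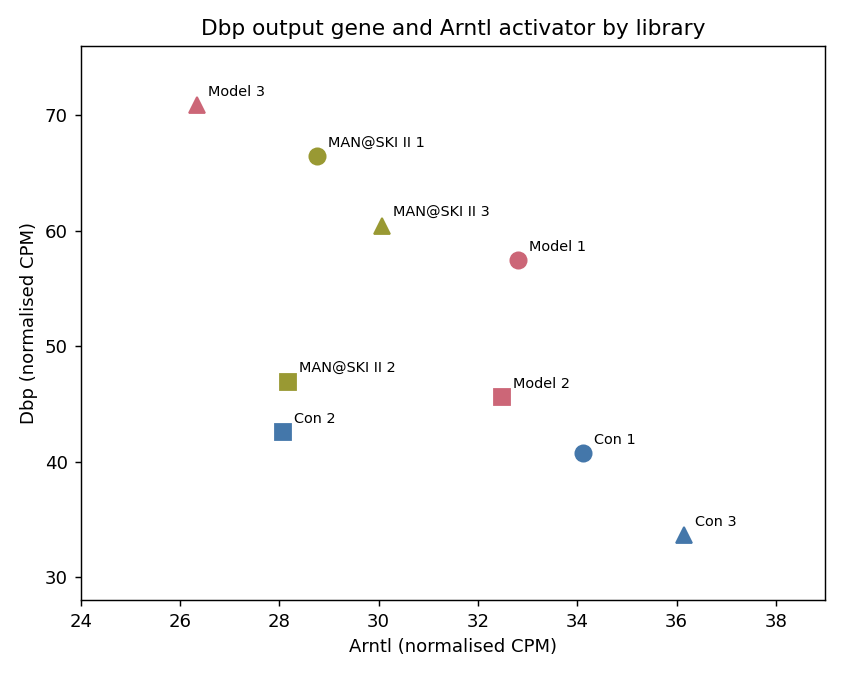
Dbp level against Arntl level in the 9 libraries, both in CPM, with 1 point per mouse coloured by group. Con mice have Dbp at 42.6 CPM or less, all BTBR mice have 45.6 CPM or more, and Model 3 has the highest Dbp (70.9 CPM) with the lowest Arntl (26.3 CPM).

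Several other measures moved with the strain. All 12 choroid plexus markers were tested and had negative log2 fold changes in Model against Con, with 6 called lower and a median of -2.92. Their summed level was 3185, 1806 and 1188 CPM in Con, 128, 459.7 and 134 CPM in Model and 149.5, 163 and 473 CPM in MAN@SKI II. Ttr, the most abundant of them, was at 823 CPM or more in Con and at 12.9 to 313 CPM in BTBR. The BTBR libraries with the most choroid plexus RNA, Model 2 and MAN@SKI II 3, also had the lowest mean of the clock genes within their groups. Oligodendrocyte markers summed to 4655 to 5374 CPM in Con, 2929 to 3239 CPM in Model and 2473 to 2823 CPM in MAN@SKI II, with 5 of 8 called lower in Model and 7 of 8 in MAN@SKI II. In Model against Con 3 of 8 astrocyte markers, 2 of 8 microglial markers and 1 of 8 markers of endothelial and mural cells were called lower. Of all 17550 genes tested, 794 were called lower. Positive log2 fold changes were found for 2 of the astrocyte, 3 of the microglial and 4 of the endothelial and mural markers. Of the 8 hippocampal neuron markers 1 was called, C1ql2, a dentate granule cell gene, which fell in Model (log2 fold change -1.02, adjusted p = 0.00145) and in MAN@SKI II (-1.08, adjusted p = 0.00104) against Con. In Model against Con 4 of the 8 had positive and 4 negative values, from -1.02 to 0.31 (median -0.02). Groups did not overlap for 6 of the 8 (32.3% of all genes tested). Of 5 genes listed as thalamus markers Calb2 was called higher in Model (0.44, adjusted p = 0.0287), a call lost with the replicate number as a term (0.0568) and without Con 2 (0.121), Con 3 (0.0797), Model 2 (0.0873) or Model 3 (0.120). Of these 5 genes, 3 had positive and 2 negative values in Model against Con, from -0.25 to 0.44. Whether thalamic tissue lies behind the Calb2 value was not tested. In bulk tissue, fewer cells of a type and less RNA per cell cannot be told apart, and the part of these cell types in the clock gene values was not tested.

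Genes that respond to stimuli which also reset or drive Per and other clock genes were read beside them. Of 11 glucocorticoid-responsive genes, Pdk4, a mitochondrial kinase, was called higher in Model (log2 fold change 0.66, adjusted p = 0.0334) and none lower, with 8 of 11 values negative. An unadjusted p under 0.05 in Model against Con was found for 7 of the 11 (19.6% of all genes tested). The Pdk4 call is lost in limma-voom (0.0504), with the 6 compared libraries alone (0.0534), with the replicate number as a term (0.0519) and without Con 1 (0.131), Con 3 (0.127) or Model 3 (0.107). In MAN@SKI II against Con 4 were called lower, where 8.13% of all genes tested were called in either direction. Among them were Fkbp5 (-0.35, adjusted p = 0.0269), a chaperone of the glucocorticoid receptor, and Sgk1 (-0.82, adjusted p = 0.0326), a kinase. Fkbp5 was called in 13 of 17 alternatives, and not with the 6 compared libraries alone (0.0685) or without Con 1 (0.0899), Con 2 (0.117) or MAN@SKI II 3 (0.0621). Sgk1 was called in 10 of 17, and not with no filter (0.0766), with the replicate number as a term (0.0687), or without Con 1 (0.109), Con 2 (0.104), Model 1 (0.0550), MAN@SKI II 2 (0.154) or MAN@SKI II 3 (0.101). Vehicle-treated Model mice also lay below every Con mouse for Fkbp5 (-0.26, adjusted p = 0.0933) and Sgk1 (-0.65, adjusted p = 0.0811). In MAN@SKI II against Model the log2 fold changes of Fkbp5 and Sgk1 were -0.09 and -0.17. Of 8 temperature-responsive genes, Hspa1b fell in Model (-0.53, adjusted p = 0.0248; lost without Con 2, Con 3, Model 1 or Model 2, at 0.0640 to 0.111), and the cold-induced Cirbp and Rbm3 had log2 fold changes of -0.0017 and 0.06. Of 13 immediate early genes, which neuronal activity induces within minutes, none was called in MAN@SKI II against Model. There 13 had negative values (median -0.55) and 12 an unadjusted p under 0.05 (4.82% of all genes tested). In Model against Con none was called and 11 of the 13 had positive values (median 0.26). In MAN@SKI II against Model, Per1 (-0.12, adjusted p = 0.914) and Per2 (-0.09, adjusted p = 0.928) were not called. The 10 clock genes had 5 positive and 5 negative values there. The part of any of these responses in the clock gene values was not tested.

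Position in the genome was read for 2 reasons, shared reads and linked strain differences. Nr1d1 overlaps Thra on the opposite strand over 1075 bases, and Dbp overlaps Sphk2 on the opposite strand over 737 bases. Strand use in counting is not given in the sources used here, so reads from these overlaps cannot be assigned. Thra, a thyroid hormone receptor gene, had 896 CPM in Con and 913 CPM in Model (log2 fold change 0.03, adjusted p = 0.905). Sphk2, a sphingosine kinase gene that makes sphingosine-1-phosphate, had 31.2 CPM in Con, 32.6 CPM in Model and 31.1 CPM in MAN@SKI II (Model against Con 0.07, adjusted p = 0.776). Nr1d1 had a mean of 81.8 CPM in Con and 100.1 CPM in Model, well below Thra. The log2 fold changes of Nr1d1 and Dbp were 0.29 and 0.57, and the part of shared reads in them was not tested.

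Ciart lies wholly within C920021L13Rik (3.81 CPM in Con), Tef overlaps Gm17597 over 193 bases, and Cry2 overlaps D930015M05Rik. Car11, a carbonic anhydrase-related gene 405 bases from Dbp, had a log2 fold change of 0.24 in Model (adjusted p = 0.145, edgeR). Within 1 Mb of the 10 genes, 32 of 417 tested genes were called in Model against Con, 7.67% against 7.64% of all genes. Near Per3 it was 3 of 21 (Gm13092, Slc2a5 and Eno1). None of the 10 has a near-identical copy among annotated mouse transcripts.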

How the data were processed

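Poly(A) RNA from the hippocampus of 9 mice was sequenced (per the labels). Raw read counts per gene, made by the authors without normalization, were deposited. The authors' FPKM values stand beside them and were used for levels between genes. In 14024 of 14024 genes checked the FPKM equal the count over a fixed length and the library total within 1%. The submitters' processing notes name HISAT2 2.0.4, StringTie 1.3.3b, edgeR 3.2.0, Bowtie2 and GRCm39. What each tool did, which program counted reads, with which annotation and strand setting, is not given in the sources used here. Groups follow the sample titles, and coordinates are those of the deposited table unless another build is named.

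Counts were tested with edgeR 4.0.16 (R 4.3.3): filterByExpr, TMM factors (0.960 to 1.01), and a robust quasi-likelihood fit of group over all 9 libraries, with two-sided F tests and Benjamini-Hochberg adjustment over 17550 genes. A gene was called at an adjusted p under 0.05. All adjusted p-values are from this fit unless another tool is named. Likeness used log2 CPM with a prior count of 2. Floors of 3 counts cover counting error only.

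The members and lists were chosen with earlier results of these data known. Named genes were all members, the called genes of each list with the smallest p (up to 2 per direction), Arntl, Clock, Npas2, Nfil3, Hlf, overlapping genes, the neighbours of Dbp, Ttr, and the 5 genes most like and most unlike the members' mean, of which 1 is not reported here. Cirbp, Rbm3, Per3's called neighbours and the 2 ratios to Arntl were added after values were seen. Promoters are RefSeq entries on GRCm38.p6. Near-identical copies were sought with BLAST 2.17.0 in GENCODE M21 transcripts with matches of 150 bases or more that cover 50% of the shorter transcript at 97% identity. The procedure was tested on simulated counts.

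The alternatives were RLE factors, no factors, no filter, at least 1 CPM in at least 3 libraries, DESeq2 1.42.0, limma-voom (limma 3.58.1), the 6 compared libraries alone, the replicate number as a term, plain-total CPM, and each library left out.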

Additional observations from a re-analysis of the deposited data

How the results depend on the processing

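Across 17 alternatives per comparison, fold changes of the named genes kept their direction and side of the threshold in 833 cases, lost a call in 64, gained one in 12 and changed sign in 26. Levels moved by less than 1 SD in 29 of 30 cases with plain-total scaling, the exception being Cry2 in Con (150 CPM).

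In Model against Con, 1 of the 10 clock genes was called, and 2 were called in DESeq2, 2 with the 6 compared libraries alone, 0 with the replicate block, and 0 to 2 with a library left out. The 1340 genes called became 2073 with the 6 libraries alone and 830 to 2226 with a library left out (lowest without Con 1, highest without MAN@SKI II 2). Of the single genes, Cry1 was called with the 6 libraries alone (adjusted p = 0.0265) and without MAN@SKI II 3 (0.0495). In MAN@SKI II against Model, edgeR called 0 genes, and 1 with no factors, 1 with no filter, 1 with the 6 libraries alone, 1 with the replicate block, 15 in DESeq2 and 0 to 9 with a library left out (9 without Model 3). In MAN@SKI II against Con, 2 clock genes became 0 to 3, and 1427 genes became 857 to 1633, with a library left out.

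Sign changes were all among small values, and the cause was not tested. Over the fits that leave out a library, log2 fold changes in Model against Con ran from -0.06 to 0.02 for Cry2, -0.05 to 0.01 for Clock and -0.18 to 0.12 for Nfil3, which was -0.00099 in limma-voom. In MAN@SKI II against Model they ran from -0.05 to 0.11 for Per3, -0.08 to 0.11 for Cry1, -0.15 to 0.17 for Dbp, -0.07 to 0.11 for Tef, -0.19 to 0.15 for Ciart and -0.27 to 0.07 for Hlf. There Cry1 was -0.0025 with no factors, and Dbp was 0.0017 with RLE factors, 0.0015 in DESeq2 and 0.01 in limma-voom. In MAN@SKI II against Con they ran from -0.003 to 0.14 for Per1 and -0.13 to 0.08 for Per2, which was -0.02 with no factors, -0.01 with no filter, -0.01 in limma-voom and -0.0031 with the replicate block.

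No pairing by replicate number was seen. Deviations correlated at -0.0639 to 0.0525 between same-numbered libraries and at -0.0638 to 0.087 between others. Of 9 libraries 2 correlated best with their own number. Correlations this small cannot settle whether mice were handled in numbered sets. Alternatives meant for a table without counts (other pseudocounts, a filter on FPKM) were not run because counts were deposited. With 3 mice a group, differences as small as those of Per1 or Nr1d2 were not resolved. Ciart and Cry1 had the lowest counts of the 10 genes. Their SEs in Model against Con (0.18 and 0.12) equalled those of Dbp (0.18) and Per2 (0.12), which had more counts.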
